A study of Mus musculus with 10 samples.

Results

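Genes of DNA replication and mitosis were examined in platelet RNA from 5 libraries of P7 mice (taken to mean postnatal day 7) and 5 of adult mice. The set comprised 35 genes of 53819 with a row in the count files, taken by gene symbol from a list of cell cycle genes, and all 35 had a row. For the comparison between phases they were divided into 14 S-phase members (the helicase subunits Mcm2 to Mcm7, Ccne1, Ccne2, Cdk2, Rrm1, Rrm2, Tyms, Tk1 and Pcna) and 21 mitotic members. The mitotic members were Ccna2, Ccnb1, Ccnb2, Cdk1, Plk1, Aurka, Bub1, Bub1b, Aurkb, Birc5, Cdc20, Ube2c, Cenpa, Cenpf, Kif11, Kif23, Tpx2, Mki67, Top2a, Hmgb2 and Stmn1. Libraries are named by the letters of their labels, and lists of 5 values follow the order A, B, C, E, I for P7 and A, B, C, G, H for adult. The labels name the tissue as platelet and state no treatment, and nothing used here gives strain, sex or adult age. Nothing tells if each library is a separate animal, a pool or a repeat, so p-values reflect only how these libraries vary, in part perhaps technically.

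Platelets have no nucleus and do not divide, and their RNA comes from the megakaryocytes that shed them. A dividing cell loads the MCM helicase on DNA, copies the genome in S phase with freshly made deoxynucleotides, and then separates the chromosomes in mitosis under cyclin B and CDK1. Megakaryocytes repeat S phase and an incomplete mitosis without dividing, a process called endomitosis that makes them polyploid, and those of newborns are known to be smaller and less polyploid than those of adults. Genes of S phase are classically driven by E2F factors, and genes of mitosis by B-MYB and FOXM1 with the MuvB complex. MuvB binds a CHR element, often near CCAAT boxes bound by NF-Y, and as part of the DREAM complex it represses the same genes in resting cells.

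The promoters of the members are described first. RefSeq windows of 300 bases, from 250 before to 50 after the start site in build GRCm38.p6, were matched by symbol for 29 of the 35 members, giving 30 windows, 13 of S-phase and 17 of mitotic members; Ccne2, Mcm4, Ccna2, Aurkb, Tpx2 and Stmn1 had no entry. The CHR letters TTTGAA, on either strand, were in 14 of 17 mitotic windows (82.4%), in 1 of 13 S-phase windows (7.69%, Mcm2) and in 17.9% of all 32851 windows. An E2F site, spelled TTTCCCGC, TTTGGCGC, TTTCGCGC or TTTGCCGC on either strand, was in 5 of 13 S-phase windows (38.5%, of Cdk2, Mcm3, Mcm5, Mcm6 and Mcm7), in 1 of 17 mitotic windows (5.88%, Cdk1) and in 2.26% of all windows. CCAAT, on either strand, was in 10 of 13 S-phase windows (76.9%), 16 of 17 mitotic windows (94.1%) and 37.4% of all windows. These are matches of letters, given as a description; the files hold no measurement of binding. The 2 windows per phase that follow belong to the members with the smallest p among those higher at P7 and with a window. Their letters played no part in the choice. Capitals mark CCAAT, CHR and E2F letters on either strand.
Rrm2, chr12:24708004-24708303, plus strand: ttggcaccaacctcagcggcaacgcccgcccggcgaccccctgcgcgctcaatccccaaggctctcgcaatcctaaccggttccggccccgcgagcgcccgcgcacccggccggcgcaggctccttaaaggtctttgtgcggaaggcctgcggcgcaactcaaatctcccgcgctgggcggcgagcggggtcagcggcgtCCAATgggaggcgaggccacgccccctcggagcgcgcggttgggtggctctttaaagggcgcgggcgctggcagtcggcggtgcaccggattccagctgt
Mcm6, chr1:128359656-128359955, minus strand: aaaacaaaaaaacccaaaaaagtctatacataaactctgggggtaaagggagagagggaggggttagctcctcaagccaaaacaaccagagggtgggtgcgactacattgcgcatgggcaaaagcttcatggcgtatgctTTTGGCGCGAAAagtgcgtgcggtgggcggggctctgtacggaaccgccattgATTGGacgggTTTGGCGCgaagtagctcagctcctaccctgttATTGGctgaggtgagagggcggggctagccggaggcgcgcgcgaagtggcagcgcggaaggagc
Hmgb2, chr8:57511593-57511892, plus strand: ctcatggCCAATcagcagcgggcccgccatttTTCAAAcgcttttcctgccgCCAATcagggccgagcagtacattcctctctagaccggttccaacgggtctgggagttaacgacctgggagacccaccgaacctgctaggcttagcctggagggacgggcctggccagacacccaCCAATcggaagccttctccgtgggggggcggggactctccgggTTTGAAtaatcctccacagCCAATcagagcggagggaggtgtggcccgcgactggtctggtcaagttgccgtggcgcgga
Cdc20, chr4:118437294-118437593, minus strand: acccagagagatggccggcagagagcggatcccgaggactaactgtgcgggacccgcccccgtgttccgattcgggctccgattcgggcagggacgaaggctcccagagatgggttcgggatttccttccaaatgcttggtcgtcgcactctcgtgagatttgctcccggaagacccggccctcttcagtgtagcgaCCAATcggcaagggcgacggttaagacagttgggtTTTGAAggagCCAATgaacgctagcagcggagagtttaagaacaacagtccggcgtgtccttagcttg
The CCAAT of Rrm2 lies at position -50 from the start site, and that window has no CHR or E2F letters. In the window of Mcm6, TTTGGCGC begins at -110 and at -47, the first overlapping the reverse-strand site GCGCGAAA at -106, and CCAAT on the reverse strand begins at -57 and -14. In the window of Cdc20 a CHR element at -18 stands between CCAAT boxes at -53 and -8. The window of Hmgb2 holds CHR letters at -218 and -30 and CCAAT at -243, -198, -73 and -11.

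All 35 members had a higher mean level at P7 than in adults, where 56.9% of 20865 genes with any count had a fold change above 0. In bulk libraries, fewer cells of a type and less RNA per cell cannot be told apart. Counts of the members were low throughout. They summed to 5366 counts in the 5 P7 libraries and 1226 in the 5 adult libraries, 0.00470 ± 0.00138% and 0.00113 ± 0.000465% of all counts (SD, n = 5 each), out of totals of 19431863 to 25029931 counts per library. The highest count of any member in any library was 129, and in adults 26 of 35 members had fewer than 50 counts over the 5 libraries together. Of the 175 values at each age (35 members in 5 libraries), 16 were 0 at P7 and 70 in adults. Between 27 and 35 members were detected per P7 library and between 19 and 23 per adult library. A count of 0 in a single library allows up to 3 counts of that library's total, a level between 0.120 CPM (counts per 1000000) at the greatest depth and 0.154 CPM at the least.

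**Figure D1:**
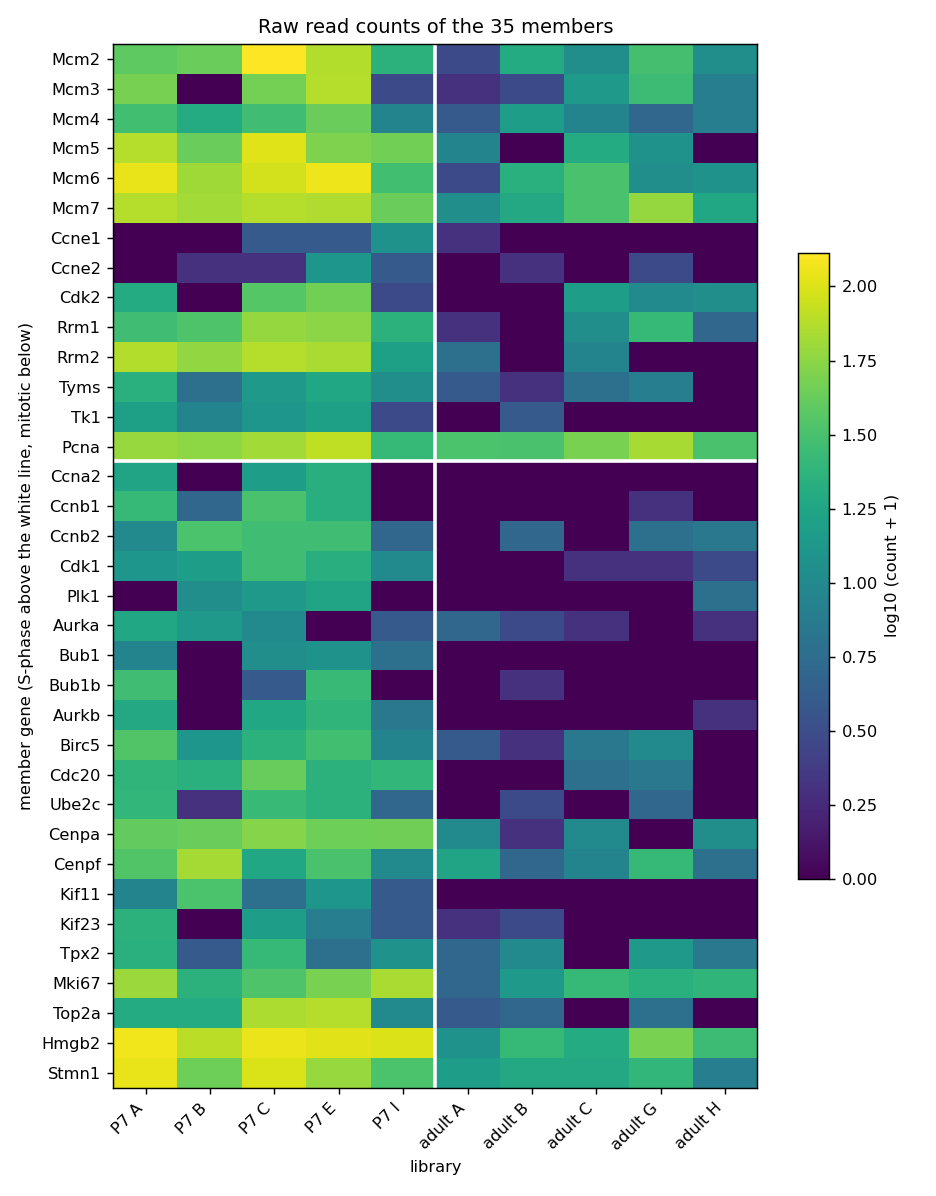
Raw read counts of the 35 members (rows) in the 10 libraries (columns), coloured on a log10 (count + 1) scale, with the S-phase members above the horizontal white line and the P7 libraries left of the vertical one. The dark cells are counts at or near 0, with 70 zeros in the adult columns and 16 in the P7 columns.

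The S-phase members summed to 23.7, 20.3, 29.5, 28.9 and 10.9 CPM in the P7 libraries, against 3.25, 4.73, 9.60, 10.8 and 5.57 CPM in the adult libraries. P7 I lay far under the other P7 libraries and at the level of adult G. The mean of 22.7 ± 7.61 CPM (SD, n = 5) at P7 was 3.34 times the adult mean of 6.79 ± 3.25 CPM (SD, n = 5). The mitotic members summed to 25.9, 21.3, 26.9, 24.9 and 15.7 CPM in the former and to 3.29, 3.70, 4.48, 6.94 and 5.34 CPM in the latter. Here the groups stood apart, with P7 I again the lowest at its age. Means were 22.9 ± 4.58 and 4.75 ± 1.45 CPM (SD, n = 5 each), a ratio of 4.83. On the log2 scale the ratio of the ages was 1.74 for S phase and 2.27 for mitosis, and 1.92 and 2.38 without P7 I. These sums have no test, because the members were chosen with results of these data known.

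The ratio of the S-phase sum to the mitotic sum within a library was 0.915, 0.952, 1.1, 1.16 and 0.694 at P7, against 0.986, 1.28, 2.14, 1.56 and 1.04 in adults. The ranges overlapped, around means of 0.964 ± 0.182 for P7 and 1.40 ± 0.471 for adult (SD, n = 5 each), so the larger mitotic than S-phase difference was within the spread between libraries. Pcna, whose product is the sliding clamp that holds DNA polymerase on its template, made up much of the adult S-phase sum. Without Pcna and Hmgb2, the most counted member of each phase, the log2 of the P7 to adult quotient of this ratio went from -0.54 to -0.30. Without Ccna2, Stmn1, Hmgb2, Mki67 and Top2a, mitotic members that are not confined to mitosis, it was -1.0.

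**Figure D2:**
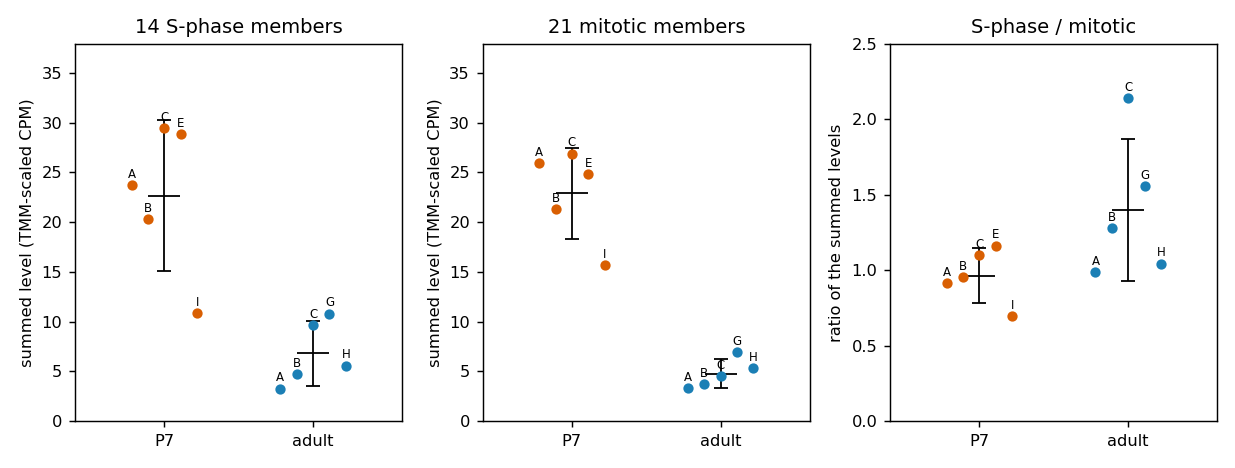
Summed levels of the 14 S-phase members and the 21 mitotic members, in TMM-scaled CPM, and their ratio, by age; each point is a library with its letter, and the black marks are the mean and SD of 5 libraries. The mitotic sums do not overlap between the ages, the S-phase sum of P7 I (10.9 CPM) meets that of adult G (10.8 CPM), and the ratios overlap.

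Of the 35 members, 16 had enough reads for the test across all genes. A gene entered it with a count of about 10 or more (0.442 CPM at the median depth) in at least 5 libraries, and those that did were 10 of S phase and 6 of mitosis. For 9 of the 16 all 5 P7 libraries reached that count and fewer than 5 adult libraries did. The adult libraries that did so ran from 0 for Rrm2 and Cdc20 to 4 for Mcm2, Mki67 and Stmn1. For 3 (Mcm7, Pcna and Hmgb2) all libraries of each age reached it. The other 4 passed only with libraries of both ages counted together, so a count over the 16 says little about the whole set. Of the 16, 11 were higher at P7 and 0 lower at an adjusted p under 0.05 (quasi-likelihood test of edgeR), where 13.8% of all 8198 tested genes were higher and 13.9% lower. At an unadjusted p under 0.05, 13 of the 16 were higher and 0 lower, and DESeq2 and limma-voom also called 0 lower. Of the 11, 7 were S-phase members (Mcm2, Mcm4, Mcm5, Mcm6, Mcm7, Rrm1 and Rrm2) and 4 were mitotic members (Cdc20, Cenpa, Hmgb2 and Stmn1). In 6 of the 11 every P7 library was above every adult library, where 4.90% of 20865 genes with a count did. The 11 were already picked as higher, so part of this separation is built in.

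Counts of called members moved with single libraries. The S-phase count fell from 7 to 3 without P7 C and to 4 without any 1 of P7 B, P7 E, adult A, adult C and adult H. All members called fell from 11 to 7 without P7 C. The mitotic count rose from 4 to 7 without P7 I, adult C or adult G and to 8 without adult H, fits in which 9 or 10 mitotic members entered the test. In the main fit the called shares of tested members were similar, 7 of 10 for S phase and 4 of 6 for mitosis. With no limit on counts 16 of 21 mitotic members and 7 of 14 S-phase members were called higher in edgeR. Of the 20865 genes of that fit, 6.55% were called higher. Of the 11 calls, that of Mcm4 was lost in this fit and 13 members outside the 11 gained one. The median log2 fold change over all members of a phase was 2.05 for S phase and 3.37 for mitosis in that fit, or 3.29 with the members at 0 in adults placed at their lower bound, and 0.24 over all its genes.

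**Figure D3:**
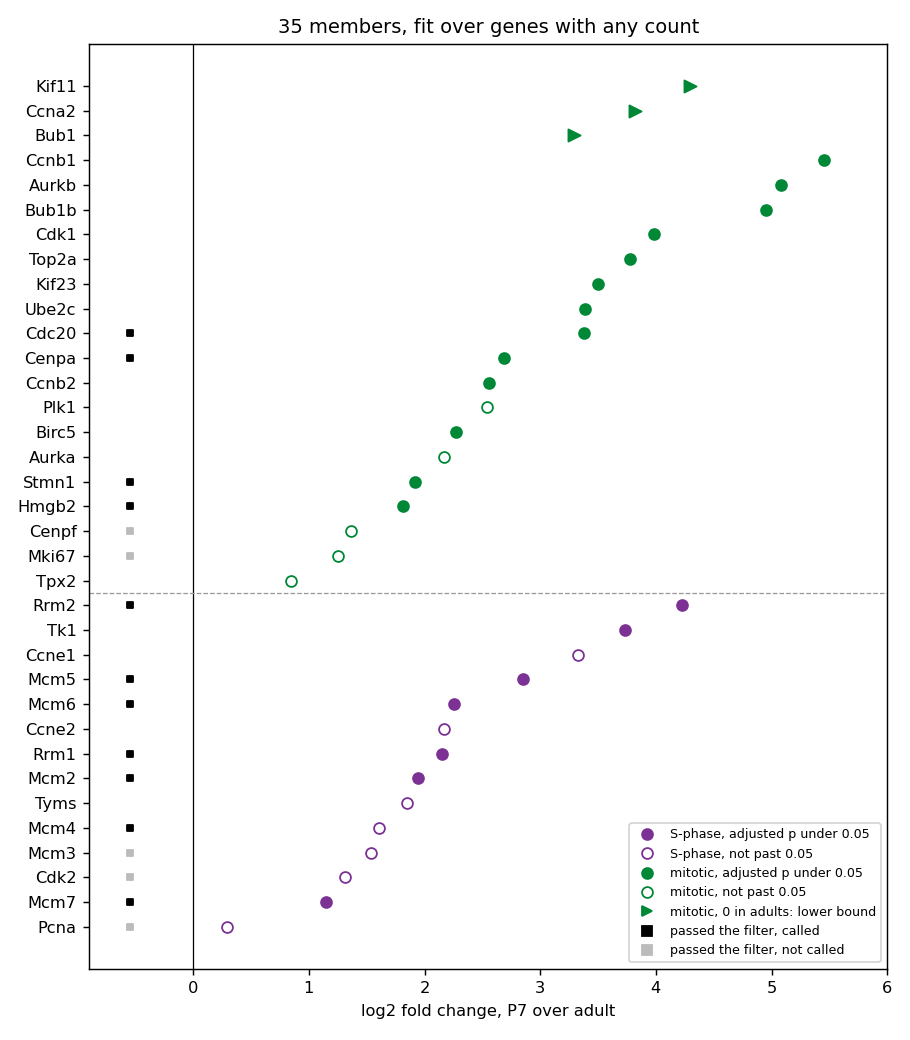
Log2 fold change, P7 over adult, of the 35 members in the edgeR fit over every gene with a count, with S-phase members (purple) under the dashed line and mitotic members (green) over it. Filled circles passed an adjusted p of 0.05, triangles are lower bounds for members with 0 counts in adults, and squares at the left mark the 16 members of the filtered fit, black where called; all points lie above 0, and values of members with few adult counts depend on the prior count of the fit.

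Among the helicase subunits, which form the ring that is loaded at replication origins and unwinds DNA, 5 of 6 were higher at P7. Mcm5 was at 2.98, 2.17, 4.06, 2.0 and 2.05 CPM at P7, against 0.382, 0, 0.926, 0.471 and 0 CPM in adults. Its groups did not overlap, and it rose by 2.87 ± 0.70 on the log2 scale (SE, edgeR adjusted p = 0.00771), or by 3.56 without adult C and 4.57 with an erythroid covariate. Mcm6 was at 4.43, 3.31, 3.74, 4.56 and 1.32 CPM at P7, against 0.0955, 0.903, 1.51, 0.428 and 0.631 CPM in adults. Only P7 I fell within the adult range, under adult C, and the log2 fold change was 2.28 ± 0.52 (SE, adjusted p = 0.00474, edgeR). Mcm2 was at 1.53, 2.17, 5.19, 2.92 and 1.00 CPM at P7, against 0.0955, 0.817, 0.487, 1.29 and 0.574 CPM in adults, with P7 C the highest and P7 I under adult G. It rose by 1.96 ± 0.55 (SE, adjusted p = 0.0158, edgeR), but by 1.53 with an adjusted p of 0.0634 in edgeR without P7 C.

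Calls of the remaining helicase subunits were less firm. Mcm7 was at 3.02, 3.36, 2.97, 2.88 and 1.92 CPM at P7, against 0.477, 0.774, 1.51, 2.53 and 0.975 CPM in adults, where adult G reached above P7 I. Its log2 fold change, 1.17 ± 0.40 (SE, adjusted p = 0.0395, edgeR), passed in 10 of 20 alternative fits. Mcm4 was at 1.17, 0.982, 1.13, 1.68 and 0.365 CPM at P7, against 0.143, 0.602, 0.390, 0.171 and 0.402 CPM in adults. P7 I lay inside the adult range, and the log2 fold change, 1.63 ± 0.53 (SE, edgeR adjusted p = 0.0336), passed in 6 of 19 alternative fits. Mcm3 ranged from 0 to 75 counts at P7 and from 1 to 27 in adults, and its log2 fold change of 1.55 ± 1.01 (SE) did not pass (adjusted p = 0.29, edgeR). P7 B had 0 counts of Mcm3, although it had 42 of Mcm5.

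Genes of deoxynucleotide synthesis included the steepest change among tested members. Rrm2, the regulatory subunit of ribonucleotide reductase, was at 2.94, 3.0, 3.01, 2.76 and 0.685 CPM at P7, against 0.239, 0, 0.390, 0 and 0 CPM in adults. All adult libraries were under P7 I, itself far under the other P7 libraries. Its log2 fold change, 4.26 ± 0.80 (SE, edgeR adjusted p = 0.00135), rests on 290 counts at P7 and 13 in adults. It was 5.25 without adult C and 6.93 with the level of erythroid markers as a covariate. Rrm1, the catalytic subunit of the same enzyme, was at 1.13, 1.71, 2.37, 2.20 and 1.00 CPM at P7, against 0.0477, 0, 0.487, 1.07 and 0.23 CPM in adults. Adult G overlapped the P7 range, and the log2 fold change was 2.16 ± 0.72 (SE, adjusted p = 0.0358, edgeR, passing in 13 of 20 alternative fits), or 3.11 without adult G. Tk1, the thymidine salvage kinase, had 52 counts at P7 and 3 in adults, a ratio of pooled levels of 15.8 with a 95% counting interval of 5.11 to 78.9. It did not enter the main test and passed in the fit with no count limit (adjusted p = 0.0223, edgeR). Tyms, the thymidylate synthase, had 66 and 16 counts and did not pass there (adjusted p = 0.16, edgeR).

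S-phase members that did not pass include the clamp and the G1/S kinase with its cyclins. Pcna was at 2.41, 2.89, 2.61, 3.20 and 1.14 CPM at P7, against 1.53, 1.33, 2.34, 2.91 and 1.78 CPM in adults. The groups interleaved, and its log2 fold change was 0.31 ± 0.33 (SE, adjusted p = 0.53, edgeR), the smallest of the 16. It did not pass in any of 20 alternative fits. A Pcna pseudogene, Pcna-ps2, held 46 counts at P7 and 62 in adults, and reads can be split between such copies, so the value of Pcna is uncertain. Cdk2, the kinase partner of cyclin E, ranged from 0 to 45 counts at P7 and 0 to 14 in adults (log2 fold change 1.33 ± 1.05, SE, adjusted p = 0.38, edgeR). The cyclin E genes were nearly undetected. Ccne1 had 17 counts at P7, 11 of them in P7 I, and 1 in adults, and Ccne2 had 17 counts, 12 of them in P7 E, and 3 in adults.

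**Figure D4:**
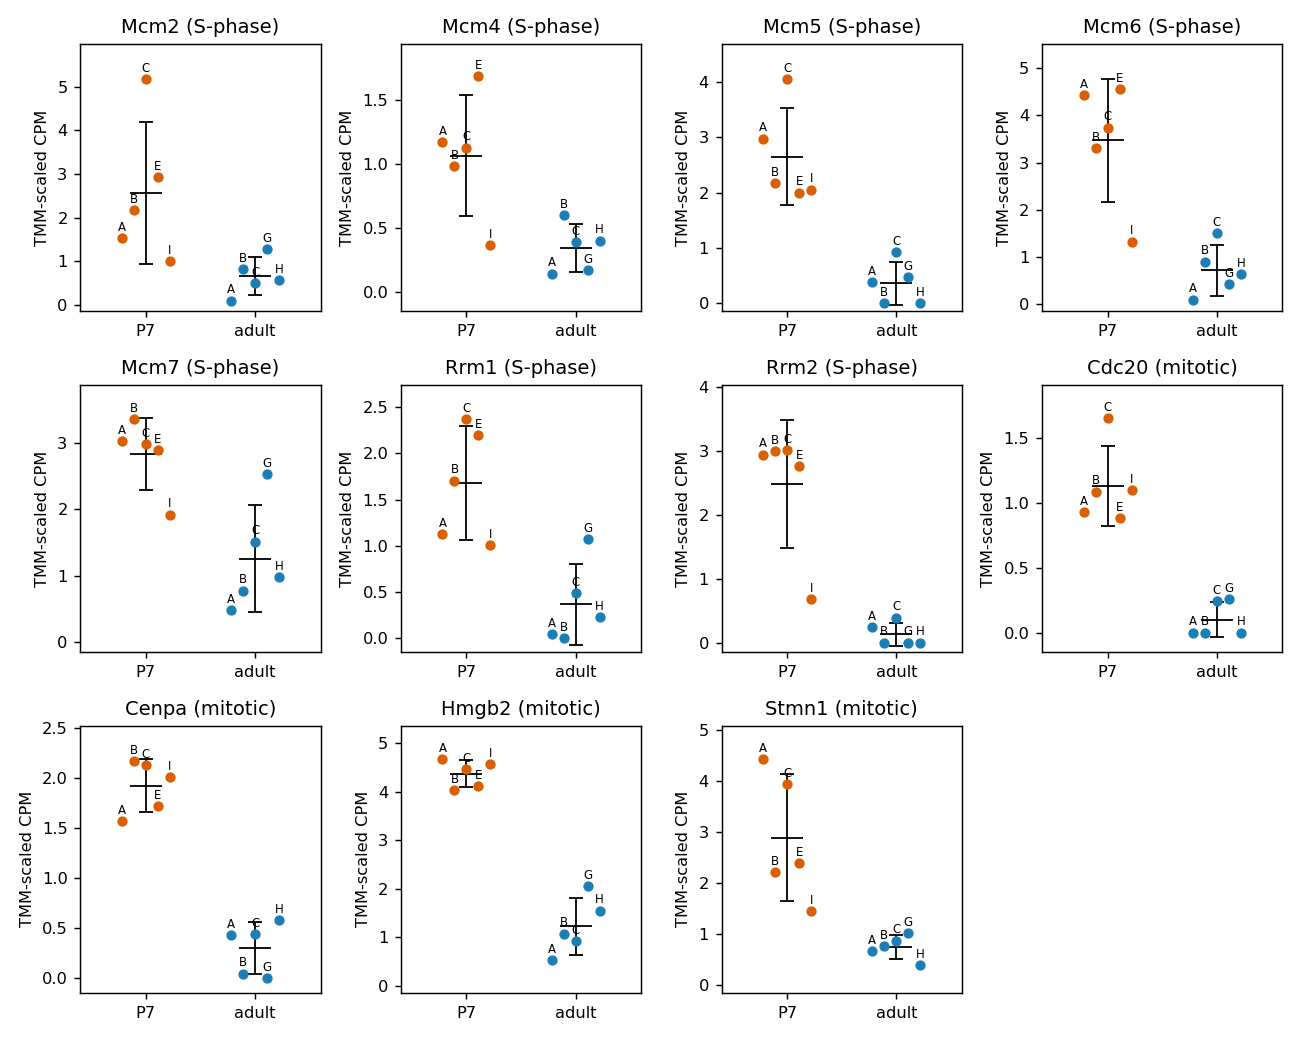
Levels of the 11 members higher at P7, in TMM-scaled CPM on linear axes, by age; each point is a library with its letter, and the black marks are the mean and SD of 5 libraries. Cdc20, Cenpa, Hmgb2, Stmn1, Mcm5 and Rrm2 show no overlap between the ages, and P7 I is the lowest P7 library for Mcm2, Mcm4, Mcm6, Mcm7, Rrm1, Rrm2 and Stmn1.

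Among the mitotic genes of chromatin, microtubules and proliferation, Hmgb2 and Stmn1 were higher at P7 and Mki67 did not pass. Hmgb2, a high-mobility-group DNA-binding protein abundant in dividing cells, was at 4.67, 4.03, 4.46, 4.12 and 4.56 CPM at P7, against 0.525, 1.07, 0.926, 2.06 and 1.55 CPM in adults. P7 I, low in most S-phase members, was level with the other P7 libraries here, and the groups did not overlap. The log2 fold change was 1.83 ± 0.33 (SE, adjusted p = 0.000928, edgeR). Stmn1, which encodes the microtubule-destabilizing stathmin, was at 4.43, 2.22, 3.94, 2.40 and 1.46 CPM at P7, against 0.668, 0.774, 0.877, 1.03 and 0.402 CPM in adults. Every P7 value exceeded every adult value, and the log2 fold change was 1.93 ± 0.38 (SE, adjusted p = 0.00178, edgeR). Mki67, the proliferation marker Ki-67 that coats mitotic chromosomes, was at 2.45, 1.14, 1.33, 1.92 and 3.15 CPM at P7, against 0.191, 0.559, 1.22, 0.900 and 1.32 CPM in adults. Adult C and H overlapped P7 B, adult H lay just under P7 C, and P7 I was the highest library. Its log2 fold change of 1.26 ± 0.47 (SE) did not pass (adjusted p = 0.0572, edgeR), though it did in 6 of 20 alternative fits, DESeq2 and limma-voom among them. Top2a, the topoisomerase that untangles sister chromatids, had 9 to 75 counts at P7 and 0 to 5 in adults with no overlap. It missed the main test because 4 libraries reached the limit on counts, and had a log2 fold change of 3.78 in the fit with no such limit (adjusted p = 7.51e-05, edgeR).

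Of the centromere and spindle genes in the main test, Cenpa was higher at P7 and Cenpf did not pass. Cenpa, the histone H3 variant that marks centromeres, was at 1.57, 2.17, 2.13, 1.72 and 2.01 CPM at P7, against 0.430, 0.0430, 0.439, 0 and 0.574 CPM in adults. Its P7 values were close together and all above the adult ones, and it rose by 2.71 ± 0.63 on the log2 scale (SE, adjusted p = 0.00565, edgeR). Cenpf, a kinetochore protein, ran from 9 counts in P7 I to 67 in P7 B and from 4 to 25 in adults, and did not pass (log2 fold change 1.39 ± 0.61, SE, adjusted p = 0.10, edgeR). Kif11, the motor that pushes spindle poles apart, had 3 to 32 counts at P7 and 0 in each adult library. Its P7 mean was 19.6 times a floor of 3 counts over the summed adult libraries, 0.0284 CPM, with the spread between P7 libraries left out. Kif11 passed in the fit with no count limit (adjusted p = 0.000492, edgeR). Of its 60 P7 counts, 32 came from P7 B, a library with 0 counts of Kif23, the motor of the central spindle. Kif23 had 46 counts at P7 and 3 in adults and passed in that fit (adjusted p = 0.0468, edgeR). Tpx2, a spindle assembly factor, had 65 and 32 and did not (adjusted p = 0.46, edgeR).

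Cdc20 and Ube2c serve the anaphase-promoting complex, the ubiquitin ligase that ends mitosis. Cdc20, its activator, was at 0.925, 1.08, 1.65, 0.880 and 1.1 CPM at P7, against 0, 0, 0.244, 0.257 and 0 CPM in adults. The groups did not overlap, with P7 C the highest, and the log2 fold change was 3.39 ± 0.78 (SE, adjusted p = 0.00523, edgeR), or 4.06 without adult G. Its exons overlap those of Elovl1 on the opposite strand in the GENCODE M21 annotation, and no source used here states whether counting used strand, so the value of Cdc20 is uncertain. The same holds for Mcm7, whose exons overlap Cops6 and Ap4m1, and for Ube2c, whose exons overlap Tnnc2. In all, 10 of the 35 members overlap some other gene there. Ube2c, the ubiquitin-conjugating enzyme of this complex, had 77 counts at P7 and 6 in adults and passed in the fit with no count limit (adjusted p = 0.0146, edgeR).

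None of the kinases and cyclins of mitotic entry and none of the checkpoint genes had enough counts for the main test. Ccna2, cyclin A2, had 16, 0, 14, 20 and 0 counts at P7 and 0 in each adult library. Its P7 mean was 14.1 times the summed floor, though P7 B and P7 I had 0 like the adults. Bub1, a spindle checkpoint kinase, had 8, 0, 10, 11 and 5 counts at P7 and 0 in each adult library. The P7 mean of Bub1 was 9.79 times that floor. These multiples leave out the spread between P7 libraries. Ccnb1, cyclin B1, had 80 counts at P7 and 1 in adults, a ratio of pooled levels of 72.8 with a counting interval of 12.7 to 2910. The width of that interval shows how little 1 adult read fixes. Its catalytic partner Cdk1 had 12, 14, 28, 20 and 9 counts at P7 against 0, 0, 1, 1 and 2 in adults, and its groups did not overlap. Ccnb2, cyclin B2, had 101 counts at P7 and 15 in adults. Of the chromosomal passenger genes, Aurkb, the kinase, had 64 counts and 1, and Birc5, survivin, 105 and 19. Bub1b, the checkpoint protein BubR1, had 57 counts and 1, of which 28 were in P7 A and 26 in P7 E, while P7 B and I had 0.

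Of these genes of mitotic entry and checkpoint, Cdk1, Ccnb2 and Birc5 were detected in all 5 P7 libraries and the others were not. P7 B had 0 counts of Ccna2, Bub1, Bub1b, Aurkb and Kif23, and P7 I had 0 of Ccna2, Ccnb1, Plk1 and Bub1b. In the fit with no count limit, Ccna2, Ccnb1, Ccnb2, Cdk1, Bub1, Bub1b, Aurkb and Birc5 passed (adjusted p = 0.000722 to 0.0312, edgeR), while Plk1 (39 and 5 counts) and Aurka (42 and 8), the kinases of mitotic entry and spindle poles, did not (adjusted p = 0.19 for both). In all, 9 of 35 members had every P7 library above every adult library, 2 of S phase (Mcm5 and Rrm2) and 7 of mitosis (Cdk1, Cdc20, Cenpa, Kif11, Top2a, Hmgb2 and Stmn1), where 4.90% of 20865 genes with a count did.

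Other genes of the same processes were taken from lists chosen for their function. Of 59 replication genes 23 were tested, with 5 higher and 3 lower at P7, beside 13.8% higher and 13.9% lower over all tested genes. Higher were Gmnn, the geminin that keeps origins from being licensed again, at 3.36 ± 0.74 on the log2 scale (SE, 62 counts at P7 and 5 in adults), Slbp at 2.05, the clamp loader subunit Rfc5 at 1.77, the single-strand binding subunit Rpa3 at 2.54 and the polymerase delta subunit Pold1 at 1.97. Lower were the origin recognition genes Orc5 at -1.45 ± 0.27 and Orc4 at -0.82 ± 0.18 (SE) and Dut, the dUTPase, at -0.86. Mean levels of Orc4 were 47.5 ± 12.1 CPM for P7 and 83.8 ± 8.04 CPM for adult, and those of Dut 84.2 ± 20.2 and 152.6 ± 51.2 CPM (SD, n = 5 each), far more counts than any member had. Of 71 mitosis genes 17 were tested, with 3 higher (Racgap1 at 1.85, Tacc3 at 2.02 and Ckap5 at 0.99) and 1 lower, the condensin subunit Smc4 at -0.76 ± 0.17 (SE). With so few tested, neither list's counts set it apart from those shares of 13.8% and 13.9%. In edgeR the adjusted p of these 12 ran from 0.00134 for Orc5 to 0.0371 for Pold1. In the fit with no count limit, 15 of 59 replication and 15 of 71 mitosis genes were higher, beside 6.55% of all genes there, and 3 and 1 were lower. Without adult C, G or H the replication list had 13 or 14 called genes, with 29 tested in place of 23, and without P7 A or P7 C the mitosis list had 2.

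Markers of other blood cells moved in part with the members. The 21 erythroid markers summed to 979 to 2552 CPM at P7, against 580 to 1778 CPM in adults. Among 13 tested, 4 were higher (Fech, Car2, Car1 and Sptb) and 0 lower, beside 13.8% and 13.9% of all tested genes. Icam4 was at 0 throughout. Without a count limit, edgeR called 8 of the 21 higher and 0 lower, where it called 6.55% of all genes higher. That fit added Klf1, Slc4a1, Ermap and Tfrc. Klf1 had 53 P7 counts against 0 adult counts with no overlap (adjusted p = 0.00092, edgeR). Slc4a1 had 30 against 0, Ermap 26 against 0 and Tfrc 155 against 36. P7 I had the highest erythroid level and the lowest sum of the 35 members among P7 libraries, 26.5 CPM, while P7 E had the lowest erythroid level of its age and a member sum of 53.7 CPM. Adult H, at 1778 CPM of erythroid markers, exceeded 4 of the 5 P7 libraries and had a member sum of 10.9 CPM. Age accounted for 39.2% of the variance of the log2 erythroid level. The erythroid level, and so mainly Hba-a1, was also used as a covariate. With it 7 of the 11 calls were kept, and those of Mcm2, Mcm4, Mcm7 and Rrm1 were lost (adjusted p = 0.0651 to 0.0975, edgeR). Their log2 fold changes were 1.91, 1.71, 1.34 and 2.69 in that fit, in place of 1.96, 1.63, 1.17 and 2.16, each with a larger SE. The 10 progenitor markers summed to 38.5 to 51.7 CPM at P7, against 22.4 to 43.3 CPM in adults, mostly from Sox4 and Meis1, with Meis1 higher (log2 fold change 0.74), while Kit had 12 counts at P7 and 9 in adults and Myb 35 and 3.

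Markers of white cells were low beside platelet markers at both ages. The members were low too, with sums of 26.5 to 56.4 CPM at P7 and 6.54 to 17.7 CPM in adults. The 14 neutrophil markers summed to 1.93 to 6.44 CPM at P7, against 1.09 to 1.71 CPM in adults, with no overlap and 0 of 1 tested called. Ly6g and Cxcr2 were at 0 in all libraries, while S100a8 had 67 counts at P7 and 12 in adults, S100a9 71 and 19, Retnlg 64 and 10, Ngp 25 and 0 and Ltf 27 and 0. In the edgeR fit with no count limit, used for the members too, Ngp and Ltf passed (adjusted p = 0.0220 and 0.0327), each detected in 3 or fewer P7 libraries. The 7 markers of myeloid precursors summed to 1.05 to 2.21 and 0.171 to 0.946 CPM, also with no overlap, with Prtn3 higher at P7 (log2 fold change 1.85), Mpo at 28 counts at P7 and 0 in adults, and Elane at 1 and 0. Monocyte and macrophage markers, 11 in all, ran from 1.55 to 6.23 and from 1.75 to 3.18 CPM, with overlap. The 10 B cell markers ran from 2.25 to 9.16 and from 0.516 to 2.05 CPM, again with no overlap. Each of these 2 lists had 0 of 1 tested called, and the B cell marker Igll1 was at 0. In the fit with no count limit Mpo, Prtn3, Cx3cr1 of the monocyte list and Cd79a of the B cell list were higher. The 12 T and NK cell markers were at 8.37 to 12.1 CPM at P7, against 12.5 to 21.6 CPM in adults. These sums did not overlap either, with P7 the lower, and Nkg7 was called lower. Platelet markers, 16 in all, held 77194 to 102590 CPM at P7, against 75992 to 106300 CPM in adults. Of these 16, 6 were higher and 3 lower, beside 13.8% higher and 13.9% lower over all tested genes. Among them were Thbs1 (log2 fold change 1.26), Gp1bb (1.22), Ppbp (-1.57) and P2ry12 (-1.34). These lists cover blood cells only, and markers of other tissues were not examined. The part of other cells in the member levels was not tested. Median GC content was 49.3% for the 35 members and 50.2% for the tested genes, and with the GC trend of each library removed 10 of the 11 calls were kept. That of Mcm7 was lost with little change in its log2 fold change (1.09, edgeR adjusted p = 0.0539, in place of 1.17).

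**Figure D5:**
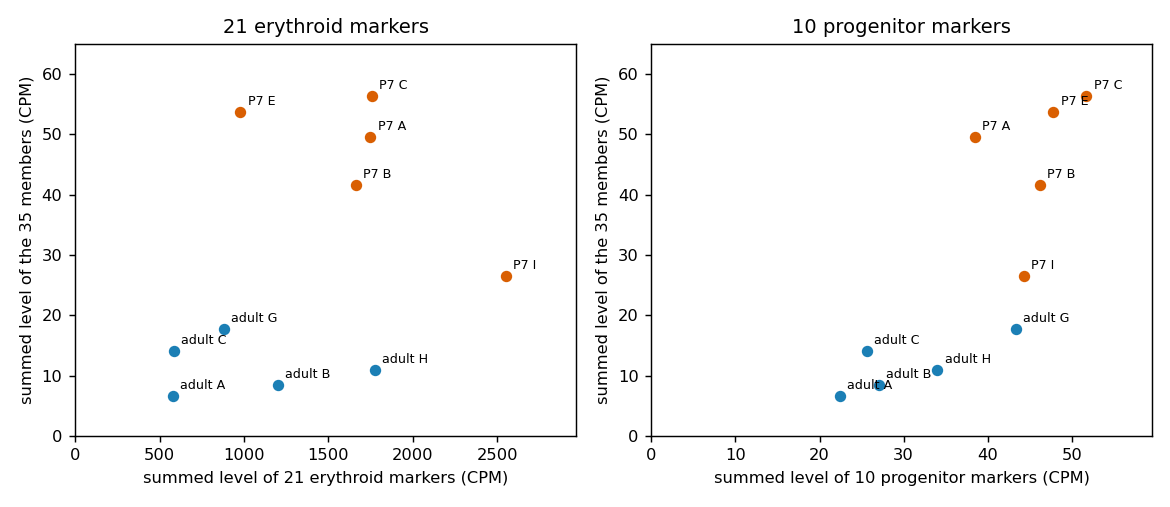
Summed level of the 35 members (vertical axes, TMM-scaled CPM) against the summed level of 21 erythroid markers (left) and 10 progenitor markers (right), with each point a library, orange for P7 and blue for adult. Most of the erythroid sum is the globin gene Hba-a1, so the left axis says little of less abundant erythroid markers. Adult H has more erythroid marker RNA than 4 of the P7 libraries, P7 A and P7 C only by little, and fewer member reads. P7 I combines the highest erythroid level with the lowest P7 member level.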

How the data were processed

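Platelet RNA of 5 P7 and 5 adult libraries was sequenced after SMARTer amplification of low-input cDNA and Nextera XT library making, per the labels' protocols. The authors deposited raw counts, 1 value per gene symbol. The tools STAR 2.7.9a, featureCounts, Subread 2.0.1, fastp 0.23.1 and Salmon 1.5.2 are named, without their roles, per the submitters' processing notes. For genome build, annotation and strand setting: not given in the sources used here. Amplified reads carry no molecular identifiers, so intervals and floors cover counting error only.

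Genes were filtered with filterByExpr (minimum count 10, minimum total 15), scaled by TMM and tested across all 8198 genes with edgeR 4.0.16's quasi-likelihood F test (limma 3.58.1, R 4.3.3), age as the only term, with Benjamini-Hochberg adjustment. Genes with an adjusted p under 0.05 were called. CPM are TMM-scaled, and the SE is the fold change over the root of F. The code was tested on simulated data. Alternatives were RLE and library-size scaling, DESeq2 1.42.0, limma-voom, 2 filters, each library left out, letters A to C as a block, an erythroid covariate and, chosen after seeing the data, removal of the GC trend. GC content came from GENCODE M21 transcripts, for 97.9% of tested genes. The members and lists were chosen with earlier results of these data known. All 35 members are named; from other lists up to 5 called genes per direction with the smallest p were named; a few marker genes were added after their values were seen.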

Additional observations from a re-analysis of the deposited data

Results flagged for a closer look

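Examined were 56 sets of 5 libraries (members with a count of at least 10 at an age, and the summed levels). In 5 sets a library's gap to its nearest neighbour took up more of the range than Dixon's 95% limit of 0.71. Chance gives about 1 in 20 for normal values, a rate that need not hold for low counts with zeros. All 5 were P7 libraries, but more members reached 10 counts at P7 than in adults, so more sets were of P7. Rrm2 was at 0.685 CPM (15 counts) in P7 I, against 2.76 to 3.01 CPM in the other P7 libraries. Ccne1 was at 0.502 CPM (11 counts) in P7 I, against 0 to 0.121 CPM. Ccne2 was at 0.480 CPM (12 counts) in P7 E, against 0 to 0.137 CPM. Kif11 was at 1.65 CPM (32 counts) in P7 B, against 0.137 to 0.480 CPM. Cdc20 was at 1.65 CPM (41 counts) in P7 C, against 0.880 to 1.1 CPM.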

How the results depend on the processing

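None of the 16 tested members changed direction in the 20 alternative fits, and of 315 single-member values 276 kept their side of the threshold, 33 lost a call and 6 (all of Mki67) gained one. Fits with RLE or library-size scaling, DESeq2, limma-voom, a mean of at least 1 CPM, or the GC trend removed called 9 to 12 members. With no filter 23 members were called, 16 of them mitotic, and 18 replication and 16 mitosis pathway genes. With the erythroid covariate 7 members were called, 3 of them S-phase, and 4 replication pathway genes. Leaving out 1 library also lowered the limit on counts to 4 libraries in place of 5. Over those fits calls ran from 7 to 14 for members, 3 to 7 for S-phase members, 4 to 8 for mitotic members, 6 to 14 for replication genes and 2 to 5 for mitosis genes. Without the 5 members not confined to mitosis, the log2 ratio of mitotic sums was 2.67 in place of 2.27, and that of the S-phase to mitotic ratio -1.0 in place of -0.54. Libraries with the same letter shared little beyond it (correlations of deviations of -0.0378, 0.0649 and 0.00670 for A, B and C), so nothing shows that the letters pair the libraries. With limma-voom the log2 fold changes of Mcm5, Rrm2, Cdc20, Cenpa and Rrm1 were larger (3.97, 5.04, 4.12, 3.58 and 3.15). With letters A to C as a replicate block 10 members were called, against 13 in the same 6 libraries unblocked, where 7 were mitotic. Depth limits all of these counts: 131 of 175 adult values and 49 of 175 P7 values were under 10 counts.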
